A study of Saccharomyces cerevisiae with 6 samples.

Results

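Steady growth at 30°C was compared with steady growth at 25°C in total RNA of budding yeast (Saccharomyces cerevisiae). The comparison took 4 of the 6 libraries of the series, chosen by their labelled temperature: 2 biological replicates at 30°C and 2 at 25°C, with all 6461 gene rows of the count table. All cultures were of 1 genotype, CBP80-PPX-PrA, SNAPf-YRA1, in the BY4741/2 background, grown in the rich medium YPD at 30°C or at 25°C up to a similar optical density, with no change of temperature. Both temperatures therefore share a protein A tag on Cbp80, the large subunit of the nuclear cap-binding complex encoded by STO1, and a SNAP tag on the mRNA export adaptor Yra1, and no untagged strain was measured here. The other 2 libraries, from a 25°C culture that was given pre-warmed medium and kept at 37°C for 2 h, entered the filter on low counts and the fit of the spread (5181 genes were tested with all 6 libraries, 4897 with the 4 alone), and the levels of a few genes in them are given. RNA was read by 3′-Tag-seq (QuantSeq), which sequences transcripts next to their poly(A) tails. The submitters' processing notes list a tool for molecular barcodes, and no source used here says how it was applied to these libraries, which leaves unknown whether a count is a read or a molecule. In bulk RNA of this kind, fewer cells that express a gene and less of its RNA per cell cannot be told apart. STE2, the receptor for alpha factor found on cells of mating type a, had 273 and 165 counts at 30°C and 22 and 178 at 25°C. MF(ALPHA)1, which encodes alpha factor itself, had 0 counts in all 4 libraries. SAG1, the 1 tested gene of the 4 on the mating type alpha list, had 20 and 34 counts at 30°C and 12 and 28 at 25°C.

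Laboratory yeast is usually kept at 30°C, and 25°C is the usual temperature for strains that do not tolerate warmth. Growth temperature is known to act on yeast transcripts through several programmes. Msn2 and Msn4 are activators that bind the stress response element (STRE) and turn on chaperone, carbohydrate reserve, and antioxidant genes under many stresses, Hsf1 keeps up the chaperones that fold proteins, and the genes for ribosomal proteins and for ribosome assembly follow growth and nutrient signals. Cell wall proteins and membrane lipid enzymes are also known to respond to temperature.

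No transcript passed the thresholds between 30°C and 25°C. CHA1, which breaks down serine and threonine, and HSP26, a small heat shock protein, came first by p, with log2 fold changes (log2FC, 30°C over 25°C) of 1.95 and 3.19 from levels in CPM (counts scaled to a common library size, with TMM factors). Of the gene groups, those of general stress, glycogen and trehalose, and amino acid breakdown most often stood higher in both 30°C libraries, and ribosome assembly factors most often stood lower, and the 25°C replicates differed from each other by more than 2-fold in 34.4% of tested genes. The test was edgeR's quasi-likelihood F test of the raw counts, with p adjusted by the Benjamini-Hochberg method, and a call needed an adjusted p below 0.05 and a log2FC above 1 or below −1. Of 5181 genes tested, 0 were called (0%), and the smallest adjusted p was 0.888. At an unadjusted p below 0.05, 57 genes were higher at 30°C (1.1%) and 16 were lower (0.309%). Together these are a smaller share than the 0.05 of genes expected at this cutoff when no gene differs. They are therefore no excess of genes over that expectation. limma-voom on the same libraries called 0 genes, with 50 higher and 13 lower at an unadjusted p below 0.05. DESeq2 called 0 genes, with 31 higher and 14 lower, and its smallest adjusted p, 0.0931, was that of CHA1. These p-values measure the spread between 2 cultures per temperature.

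The libraries differed in depth and in composition. Counts in genes were 1006632 and 694502 in the 30°C libraries (replicates 1 and 2), and 184456 and 884443 in the 25°C libraries. A gene with 3 counts has 3.38 and 4.25 CPM in the 30°C libraries, 17.6 CPM in the first 25°C library, and 3.55 CPM in the second, so that low transcripts are poorly measured in the first 25°C library. Of the 6461 genes, 404 had no count in any of the 4 libraries, and of the 5181 tested, 2359 had fewer than 10 counts in the first 25°C library. Log2 CPM correlated across the tested genes at r = 0.904 between the 30°C replicates and 0.813 between the 25°C replicates. The second 25°C replicate correlated at 0.952 and 0.964 with the first and second 30°C replicates, and the first 25°C replicate at 0.716 and 0.862. The second 25°C library was thus closer to both 30°C libraries than to its own replicate. These are descriptions across genes, which are not independent.

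**Figure D1:**
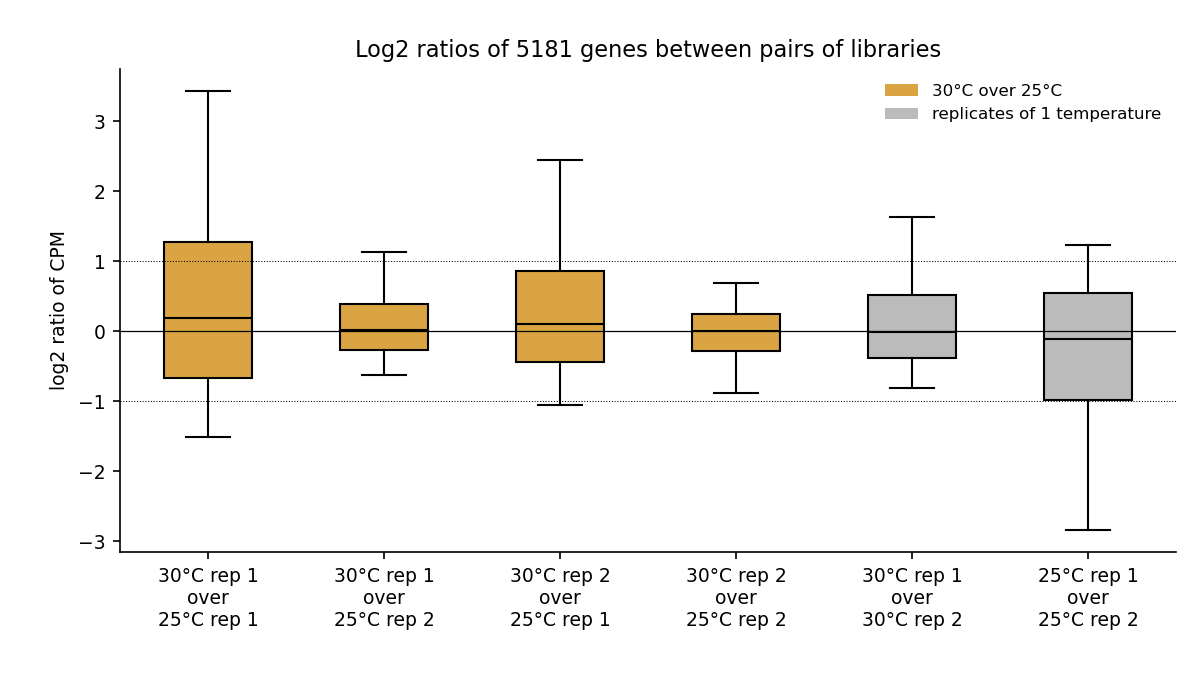
Log2 ratio of CPM (vertical axis) of the 5181 tested genes for each pair of the 4 libraries, with the median as a line, the 25th to the 75th percentile as a box, and the 5th and 95th percentiles as whiskers; the 4 ratios of 30°C over 25°C are in orange, the 2 ratios between replicates are in grey, and dotted lines mark 2-fold. The ratio of the second 30°C to the second 25°C library is the narrowest, with 5.0% of genes beyond 2-fold, and that of the first 30°C to the first 25°C library is the widest, with 45.0%.

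The ratios between libraries show the same order. Between replicates, 14.8% of genes differed by more than 2-fold at 30°C and 34.4% at 25°C. Between temperatures, 7.55% and 5.0% did so when the first and the second 30°C library were set against the second 25°C library, and 45.0% and 28.2% when they were set against the first. The median absolute log2 ratio was 0.43 between the 30°C replicates and 0.71 between the 25°C replicates, against 0.26 between the second replicates of both temperatures. Among the 2210 genes with a mean of at least 100 CPM the order was the same, with 11.8% beyond 2-fold between the 30°C replicates, 30.4% between the 25°C replicates, and 2.76% between the second replicates.

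Over all tested genes the median log2FC was 0.08, with 2904 above 0 and 2277 below. A log2FC above 1 was fitted for 298 genes and one below −1 for 62. The median standard error was 0.43, and the 95% interval reached 1.02 to either side at the median, which is just over 2-fold. For 938 genes (18.1%) the whole interval lay within 2-fold in either direction, so that a larger difference is outside it. This held for 600 of the 2210 genes with at least 100 CPM, for 336 of 1893 genes with 30 to 100 CPM, for 2 of 907 with 10 to 30 CPM, and for 0 of 171 below 10 CPM. For 4110 genes the interval lay within 4-fold. For the genes outside the 938 the interval reached beyond 2-fold in at least 1 direction.

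The transcripts measured most closely differed little. MGM101, which maintains mitochondrial DNA, had 159 and 156 CPM at 30°C, against 153 and 154 CPM at 25°C. Its log2FC was 0.04 with an interval of −0.61 to 0.69. RPN13, a ubiquitin receptor of the proteasome, had 217 and 209.6 CPM at 30°C, against 241 and 229 CPM at 25°C (log2FC −0.14, interval −0.79 to 0.52). HSH155, a subunit of the U2 snRNP, BET3, a subunit of the TRAPP vesicle tethering complexes, and HPT1, which salvages purine bases, had log2FC of 0.14, −0.10, and 0.17. These 5 had the narrowest intervals of all tested genes.

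**Figure D2:**
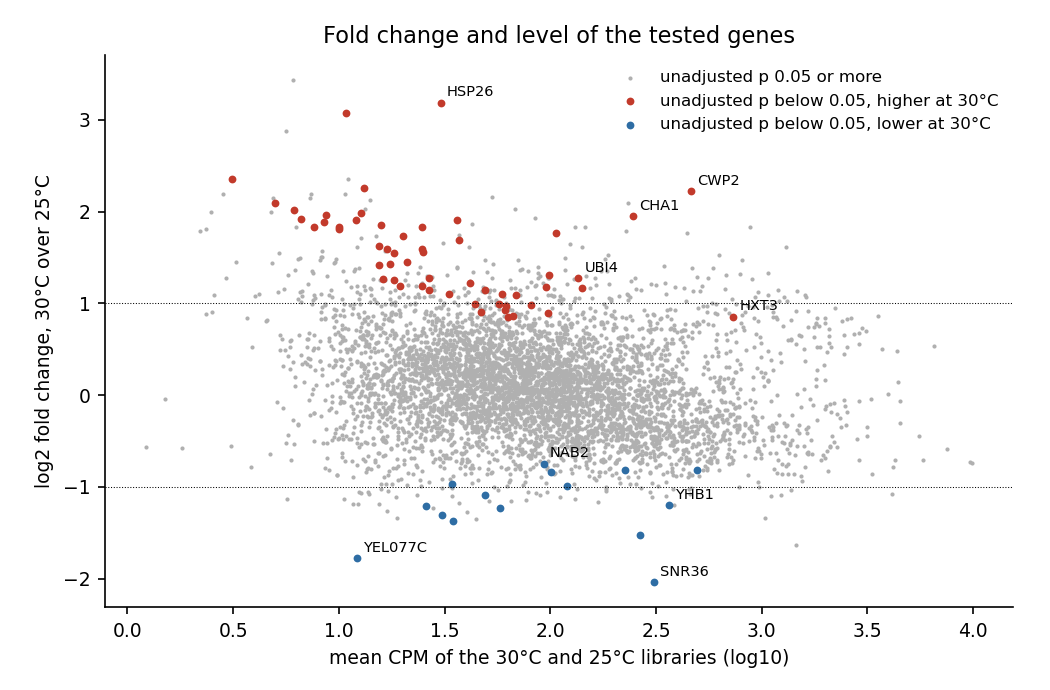
Log2 fold change of 30°C over 25°C (vertical axis) against the mean CPM of the 4 libraries (log10, horizontal axis) for the tested genes, without the 3 that had 0 counts in both libraries of a temperature. Red points are higher and blue points lower at 30°C at an unadjusted p below 0.05, grey points are the rest, and dotted lines mark 2-fold; most of the red points lie at low levels, with a median of 24.6 CPM against 79.4 CPM for all tested genes.

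CHA1 (chromosome III, 15798 to 16880 in R64, 1 coding exon), the serine and threonine deaminase of amino acid breakdown, had the smallest p. It had 359.8 and 428 CPM at 30°C, against 82.3 and 116 CPM at 25°C, from 319 and 302 counts against 14 and 98. Both 30°C libraries were above both 25°C libraries, and the means were 394 ± 47.9 and 99.2 ± 23.8 CPM (SD, n = 2 each). The log2FC was 1.95 (SE 0.34, interval 1.16 to 2.75, edgeR adjusted p = 0.888, DESeq2 adjusted p = 0.0931). Without any 1 of the 4 libraries it was 1.77 to 2.26.

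HSP26 (chromosome II, 382030 to 382674, 1 coding exon), a small heat shock protein that holds unfolded proteins, had 75.6 and 34.0 CPM at 30°C, against 5.88 and 5.92 CPM at 25°C. These came from 67 and 24 counts at 30°C and 1 and 5 counts at 25°C, so that the fold rests on few counts at 25°C. The log2FC was 3.19 (SE 0.64, interval 1.73 to 4.72, edgeR adjusted p = 0.888), the largest of the 10 genes with the smallest p that were higher at 30°C. Without the first 30°C library it was 2.49, and without the second 3.64. Across 25°C, 30°C, and 37°C, HSP26 averaged 5.90, 54.8, and 526 CPM.

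The promoters of HSP26, COX5B, AIM17, and CHA1 are shown because these transcripts were among the 10 with the smallest p and differ in how many STREs lie before the gene. Each run holds the 300 bases from 350 to 51 before the start codon, read 5′ to 3′ on the strand of the gene from the R64 genome (RefSeq), with the STRE core AGGGG in capitals in either orientation (CCCCT on the strand shown where it lies on the other).
HSP26 (chrII:381680-381979, plus strand): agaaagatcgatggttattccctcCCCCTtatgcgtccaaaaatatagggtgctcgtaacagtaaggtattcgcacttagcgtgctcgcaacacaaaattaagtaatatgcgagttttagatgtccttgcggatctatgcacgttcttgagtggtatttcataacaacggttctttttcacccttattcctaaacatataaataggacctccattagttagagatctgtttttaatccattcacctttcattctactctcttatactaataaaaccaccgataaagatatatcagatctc
COX5B (chrIX:154872-155171, plus strand): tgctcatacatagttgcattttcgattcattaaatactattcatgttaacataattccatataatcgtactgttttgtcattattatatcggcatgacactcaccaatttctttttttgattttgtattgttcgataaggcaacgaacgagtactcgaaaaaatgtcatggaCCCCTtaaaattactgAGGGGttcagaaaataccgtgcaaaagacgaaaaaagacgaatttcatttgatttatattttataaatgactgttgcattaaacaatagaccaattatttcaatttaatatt
AIM17 (chrVIII:65910-66209, minus strand): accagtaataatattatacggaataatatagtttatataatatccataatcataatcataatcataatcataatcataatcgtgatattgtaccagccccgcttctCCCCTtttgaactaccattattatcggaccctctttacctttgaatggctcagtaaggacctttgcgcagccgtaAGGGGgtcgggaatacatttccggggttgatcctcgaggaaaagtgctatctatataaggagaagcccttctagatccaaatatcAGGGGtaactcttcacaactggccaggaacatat
CHA1 (chrIII:16931-17230, minus strand): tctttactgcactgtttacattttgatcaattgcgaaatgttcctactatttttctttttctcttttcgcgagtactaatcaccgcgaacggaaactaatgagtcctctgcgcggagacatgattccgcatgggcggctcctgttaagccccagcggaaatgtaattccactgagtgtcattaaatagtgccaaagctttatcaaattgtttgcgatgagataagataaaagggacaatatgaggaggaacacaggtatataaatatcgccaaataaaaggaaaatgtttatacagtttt
AIM17 had 3 matches, COX5B 2, HSP26 1, and CHA1 0. Of 5990 windows of this length before nuclear coding genes, 1371 (22.9%) held at least 1 match, as did 41 of the 43 windows of the general stress list, which was drawn up from known Msn2 and Msn4 targets. Of the 57 genes higher at 30°C at an unadjusted p below 0.05, 56 had a window and 22 of these (39.3%) held a match, against 2 of the 15 windows of the genes that were lower. A heat shock element core, TTCNNGAA, was in 5 of the 56 windows and in 793 (13.2%) of all windows. The match ATTGTT, the core of sites of the hypoxic repressor Rox1, was in 22 of the 56 and in 1993 (33.3%) of all windows, on either strand. COX5B held 2 such matches. A match describes the letters of the window only.

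COX5B (chromosome IX, 155222 to 155765, 2 coding exons) encodes the form of cytochrome c oxidase subunit 5 that is known to be made when oxygen is low. It had 138 and 126 CPM at 30°C, against 64.7 and 54.5 CPM at 25°C, with a log2FC of 1.18 (SE 0.31, interval 0.45 to 1.92). COX5A, its aerobic counterpart, had 13.5 and 14.2 CPM at 30°C, against 5.88 and 4.74 CPM at 25°C, the 25°C values coming from 1 and 4 counts. Both 30°C libraries were above both 25°C libraries for either gene.

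UBI4 (chromosome XII, 64062 to 65207, 1 coding exon), the stress-inducible polyubiquitin gene, had 209.8 and 179.8 CPM at 30°C, against 58.8 and 94.7 CPM at 25°C (log2FC 1.28, SE 0.36). Its repeats resemble other ubiquitin genes, so that any of its reads which map to more than 1 place would be lost to it. How many were lost was not measured. CAR2, ornithine transaminase of arginine breakdown, had 65.4 and 51 CPM at 30°C, against 11.8 and 20.1 CPM at 25°C (log2FC 1.69, SE 0.45). SNF3, a plasma membrane sensor of low glucose, had 37.2 and 38.2 CPM at 30°C, against 11.8 and 13.0 CPM at 25°C (log2FC 1.56, SE 0.41). The first 25°C library held 10 counts of UBI4, 2 of CAR2, and 2 of SNF3, and the 30°C libraries were above the 25°C libraries for all 3 genes.

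MID2, a sensor of cell wall stress, had 37.2 and 26.9 CPM at 30°C, against 5.88 and 10.6 CPM at 25°C, a log2FC of 1.74. AIM17, a mitochondrial protein, had 79.0 and 34.0 CPM at 30°C, against 17.6 and 14.2 CPM at 25°C, a log2FC of 1.91 that was 1.17 without the first 30°C library and 2.39 without the second. UGX2, of unknown function, had 22.6 and 24.1 CPM at 30°C, against 0 and 5.92 CPM at 25°C. YJL213W, also of unknown function, had 19.2 and 21.2 CPM at 30°C, against 5.88 and 4.74 CPM at 25°C. For these 4 genes the first 25°C library held 0 to 3 counts.

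**Figure D3:**
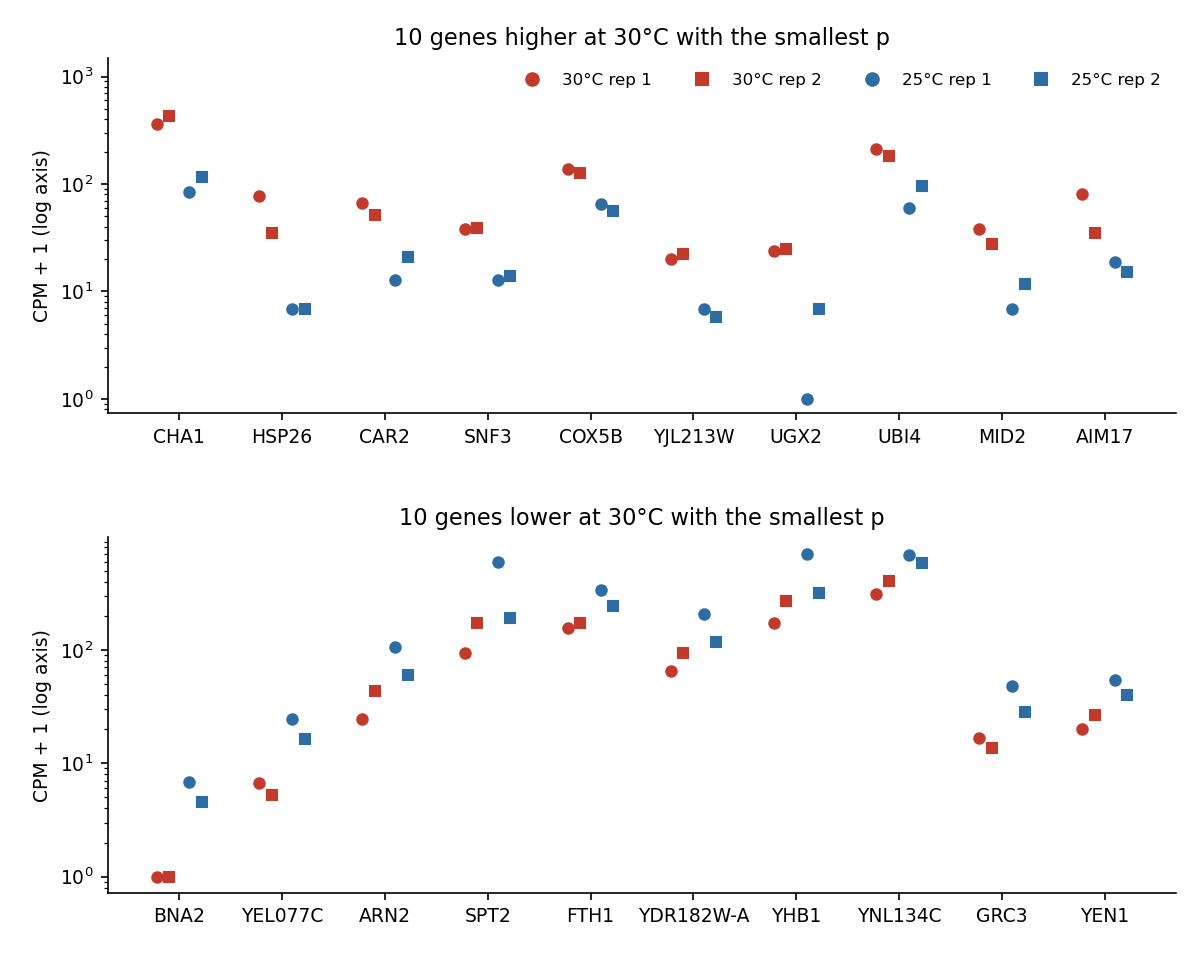
CPM plus 1 (log axis) in each of the 4 libraries for the 10 genes higher at 30°C (upper panel) and the 10 genes lower at 30°C (lower panel) with the smallest p in their direction; red marks are 30°C and blue marks 25°C, with circles for replicate 1 and squares for replicate 2. The red and blue marks do not overlap in any of the 20 genes, which picking genes by p from these libraries favours. No gene passed the threshold after adjustment.

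Over the 57 genes higher at an unadjusted p below 0.05, the 30°C libraries were both above the 25°C libraries in 56, where over all tested genes this held for 680 (13.1%). The 57 were picked by p from these same libraries, which favours such separation and a kept sign, so neither is independent support. Of the 57, 50 had fewer than 10 counts in the first 25°C library and 13 had 0 there, where 45.5% of all tested genes had fewer than 10. All 57 kept a log2FC above 0 without each of the 4 libraries in turn. At an unadjusted p below 0.05 in all 4 of those fits stood 9 genes: CHA1, HSP26, CAR2, SNF3, COX5B, UGX2, UBI4, MID2, and COS111, the last of which was named after its values were seen. COS111 had 56 and 51 counts at 30°C, against 5 and 26 counts at 25°C, a log2FC of 1.15 (SE 0.34). With the 4 libraries of 30°C and 25°C alone, 19 of the 57 had an unadjusted p below 0.05.

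Among genes lower at 30°C, 16 had an unadjusted p below 0.05, and in 15 of them both 30°C libraries lay below both 25°C libraries, as in 538 of all tested genes (10.4%). The 16 were likewise picked by p from these libraries, which favours such separation. YHB1 (chromosome VII, 959904 to 961103, 1 coding exon), a flavohemoglobin that removes nitric oxide, had 172 and 266 CPM at 30°C, against 706 and 316 CPM at 25°C (log2FC −1.20, SE 0.47). SPT2, a chromatin protein that binds histones, had 93.6 and 173 CPM at 30°C, against 599.6 and 191 CPM at 25°C (log2FC −1.53, SE 0.58). In both genes the second 25°C library was near the second 30°C library and the first 25°C library stood apart, and without the first 25°C library the log2FC was −0.53 for YHB1 and −0.52 for SPT2.

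Iron genes were among them. ARN2, a transporter of iron-binding siderophores, had 23.7 and 42.5 CPM at 30°C, against 106 and 59.2 CPM at 25°C, and FTH1, part of the iron transporter of the vacuole, had 153 and 169.9 CPM at 30°C, against 335 and 240.3 CPM at 25°C. Their log2FC were −1.23 and −0.81. Over the 17 tested genes of iron uptake under the activator Aft1, the median was −0.05, with 8 above 0 and 9 below, and ARN2 alone was at an unadjusted p below 0.05. YNL134C, an aldehyde reductase, had 310.2 and 405 CPM at 30°C, against 688 and 577 CPM at 25°C (log2FC −0.82, SE 0.32).

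GRC3, a kinase that acts in ribosomal RNA processing, had 15.8 and 12.7 CPM at 30°C, against 47.0 and 27.2 CPM at 25°C, and YEN1, a nuclease that resolves Holliday junctions, had 19.2 and 25.5 CPM at 30°C, against 52.9 and 39.1 CPM at 25°C. YDR182W-A, of unknown function, had a log2FC of −0.99. YEL077C, from the repeated Y′ elements at chromosome ends, had 5 and 3 counts at 30°C, against 4 and 13 at 25°C. Its level is uncertain because near-identical copies may share its reads. BNA2, the first enzyme of NAD synthesis from tryptophan, had 0 and 0 counts at 30°C, against 1 and 3 at 25°C, too few for a fold change. None of the 16 genes kept an unadjusted p below 0.05 in all 4 fits that left out 1 of these libraries.

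Some transcripts were counted at 1 temperature only. HSP12, a small membrane-associated stress protein, had 16 and 1 counts at 30°C, against 0 and 0 at 25°C. The pooled 30°C libraries held 10.7 CPM, at least 3.6-fold higher than a floor of 3 counts over the pooled 25°C libraries (2.96 CPM), and 16 of the 17 counts came from the first 30°C library. EAT1, an ethanol acetyltransferase, had 5 and 4 counts at 30°C and GAL2, the galactose transporter, 6 and 3, against 0 in both 25°C libraries for either gene. YIG1, which acts in glycerol synthesis, SWC7, of the chromatin remodeller SWR1, and PAU24, of the repeated seripauperin family, had 0 counts in both 30°C libraries, against 1 and 8, 2 and 3, and 1 and 3 counts at 25°C. EAT1, GAL2, YIG1, SWC7, and PAU24 were too low to be tested.

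The general stress list held 43 genes under Msn2 and Msn4, of which 37 were tested. In these, 32 had a log2FC above 0 and 5 below, with a median of 0.61 against 0.08 over all tested genes. Both 30°C libraries were above both 25°C libraries in 14 of the 37 (37.8%, against 13.1% of all tested genes) and below in 0. At an unadjusted p below 0.05, 6 of the 37 were higher, against 1.1% of all tested genes. HXK1, a hexokinase made when glucose is short, had 99.3 and 62.3 CPM at 30°C, against 35.3 and 39.1 CPM at 25°C (log2FC 1.10). GPH1, glycogen phosphorylase, had 22.6 and 26.9 CPM at 30°C, against 11.8 and 8.29 CPM at 25°C (log2FC 1.43), and ALD4, a mitochondrial aldehyde dehydrogenase, 66.5 and 53.8 CPM at 30°C, against 23.5 and 33.1 CPM at 25°C (log2FC 0.99). Summed, the list held 0.36% and 0.356% of counts at 30°C, against 0.275% and 0.28% at 25°C. These shares lay closer between replicates than between temperatures, and the list's median was 0.51 to 1.03 without each of the 4 libraries in turn.

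Of 19 tested genes for glycogen and trehalose, 17 had a log2FC above 0, with a median of 0.34, and 8 (42.1%, against 13.1% of all tested genes) were above in both 30°C libraries and 0 below. TSL1, a subunit of trehalose synthase, had 24.8 and 25.5 CPM at 30°C, against 0 and 9.47 CPM at 25°C, and GLC3, the glycogen branching enzyme, 33.8 and 41.1 CPM at 30°C, against 29.4 and 18.9 CPM at 25°C. GPH1 alone of the list was at an unadjusted p below 0.05, and it also belongs to the general stress list.

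Chaperones under Hsf1 did not share a direction. Of 31 tested, 19 had a log2FC above 0 and 12 below, with a median of 0.12. In both 30°C libraries, 5 were above (16.1%, against 13.1% of all tested genes) and 4 below (12.9%, against 10.4%). Beside HSP26, which is in this list too, SSA3, an inducible Hsp70, had 268 and 329.9 CPM at 30°C, against 135 and 239 CPM at 25°C. HSP42, the other small heat shock protein, had 234 and 176 CPM at 30°C, against 376 and 249 CPM at 25°C (log2FC −0.59), and MDJ1, a mitochondrial Hsp40, had 131 and 129 CPM at 30°C, against 264 and 170.5 CPM at 25°C (log2FC −0.71). The summed share of the list was 1.42% and 1.50% at 30°C, against 1.53% and 1.41% at 25°C. Of 22 tested genes for protein folding in the endoplasmic reticulum, 9 were above 0 and 13 below, and of 34 proteasome genes, 16 were above and 18 below.

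Of 39 cell wall genes, 31 had a log2FC above 0, with a median of 0.47, 10 (25.6%, against 13.1% of all tested genes) were above in both 30°C libraries, 2 were below, and 3 were at an unadjusted p below 0.05 and higher, against 1.1% of all tested genes. GSC2, the stress-induced subunit of glucan synthase, had 155 and 133 CPM at 30°C, against 35.3 and 72.2 CPM at 25°C (log2FC 1.31, SE 0.40). SED1, a wall glycoprotein, had 97.0 and 120.4 CPM at 30°C, against 47.0 and 59.2 CPM at 25°C (log2FC 0.98, SE 0.32). CWP2, a major mannoprotein, had 1340 and 176 CPM at 30°C, against 199.9 and 131 CPM at 25°C. Its log2FC of 2.22 (SE 0.87) came from the first 30°C library and was 0.11 without it, and the libraries of the 2 temperatures overlapped.

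**Figure D4:**
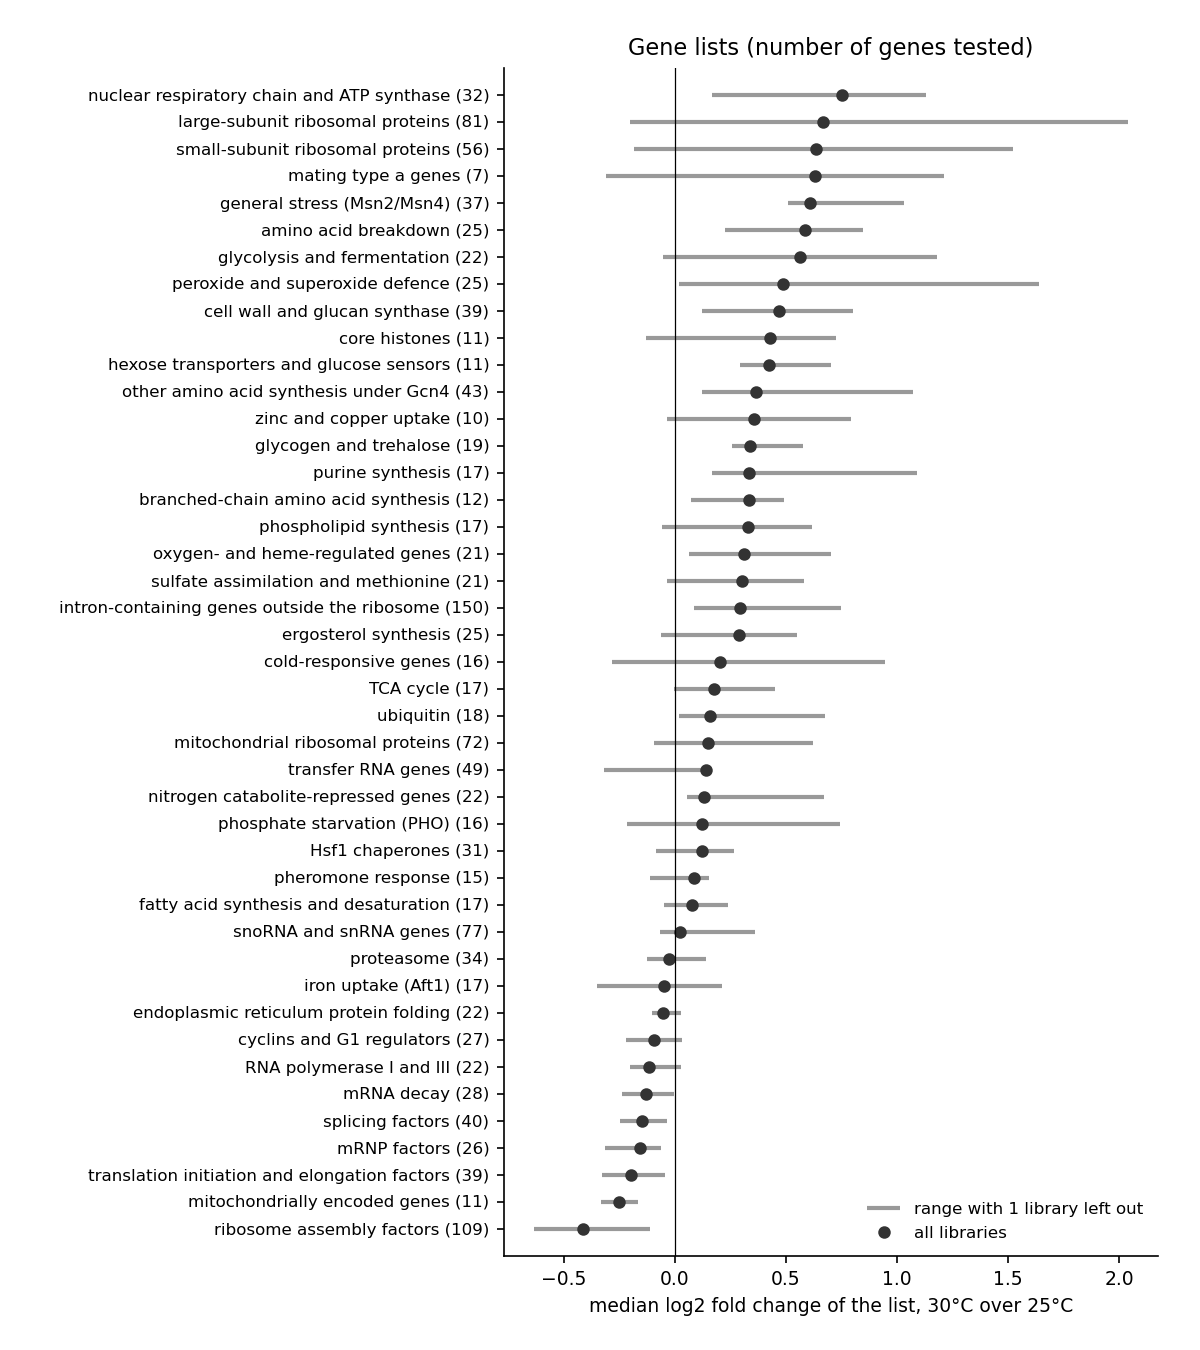
Median log2 fold change of 30°C over 25°C (points, horizontal axis) of the 43 gene lists with at least 5 tested genes, with the number of genes tested in brackets; grey bars span the medians of 4 fits that each left out 1 of the 30°C and 25°C libraries. The bar of the large-subunit ribosomal proteins is the widest, from −0.20 to 2.04. That of the general stress list, from 0.51 to 1.03, stays above 0. So do the bars of several other lists, among them amino acid breakdown and glycogen and trehalose.

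Amino acid breakdown genes, which include CHA1 and CAR2, had a median log2FC of 0.58 over 25 tested, with 19 above 0. Both 30°C libraries were above in 10 (40.0%, against 13.1% of all tested genes) and below in 1, and 4 were higher at an unadjusted p below 0.05, against 1.1% of all tested genes. ARO10, a decarboxylase of the route from aromatic amino acids to fusel alcohols, had 132 and 120.4 CPM at 30°C, against 70.5 and 66.3 CPM at 25°C (log2FC 0.89, SE 0.30). GCV2, a subunit of the glycine cleavage complex, had 75.6 and 85.0 CPM at 30°C, against 41.1 and 42.6 CPM at 25°C (log2FC 0.93, SE 0.33). The list's median without each of the 4 libraries was 0.23 to 0.85. Of 12 genes for branched-chain amino acids, 4 (33.3%) were above in both 30°C libraries and 0 below, and of 43 other amino acid synthesis genes under the activator Gcn4, 7 (16.3%) were above and 2 below, against 13.1% above and 10.4% below over all tested genes, with 0 in either list at an unadjusted p below 0.05. Of 17 purine synthesis genes, 14 had a log2FC above 0, and 6 (35.3%, against 13.1% of all tested genes) were above in both 30°C libraries and 1 below.

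SNF3 and HXT3 were the 2 of 11 tested genes for hexose transporters and glucose sensors at an unadjusted p below 0.05, where 1.1% of all tested genes were so and higher. HXT3, a low-affinity glucose transporter, had 1046 and 849.6 CPM at 30°C, against 447 and 595 CPM at 25°C (log2FC 0.86, SE 0.36, interval 0.00075 to 1.71). The close relatives of HXT3 may share some of its reads, which was not measured. HXT7, a high-affinity transporter, had 20.3 and 2.83 CPM at 30°C, against 0 and 1.18 CPM at 25°C, and was measured in few counts. Of 22 tested genes of glycolysis and fermentation, 19 had a log2FC above 0 (median 0.56), but the median was −0.05 without the first 30°C library. TDH1, an isozyme of glyceraldehyde-3-phosphate dehydrogenase, had 413 and 154 CPM at 30°C, against 41.1 and 141 CPM at 25°C. ENO1, an enolase, had 1102 and 302 CPM at 30°C, against 218 and 350.4 CPM at 25°C. PYK2, the minor pyruvate kinase, had 18 and 7 counts at 30°C, against 0 and 4 at 25°C. The summed share of the list was 3.87% and 1.79% at 30°C, against 1.37% and 2.43% at 25°C, so the temperatures overlapped.

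Nuclear genes of the respiratory chain and ATP synthase had a median of 0.75 over 32 tested, with 27 above 0. In the fit of the 30°C and 25°C libraries alone the median was 0.34. That median is over fewer genes, since members such as INH1 and COX5A were not tested there, so the 2 medians are not directly comparable. Both 30°C libraries were above in 8 of the 32 (25.0%, against 13.1% of all tested genes) and below in 0. At an unadjusted p below 0.05 stood 0 of the 32, against 1.1% higher and 0.309% lower over all tested genes. ATP7, a subunit of the ATP synthase stalk, had 263 and 176 CPM at 30°C, against 41.1 and 150.3 CPM at 25°C, and INH1, an inhibitor of ATP synthase, 36.1 and 9.91 CPM at 30°C, against 0 and 7.10 CPM at 25°C. QCR8, a subunit of complex III, had 204 and 24.1 CPM at 30°C, against 5.88 and 37.9 CPM at 25°C, which overlap. The list's median was 0.17 without the first 30°C library and 1.13 without the second 25°C library. The 11 tested mitochondrially encoded genes had a median of −0.25, with 4 above 0 and 7 below. COX2, cytochrome c oxidase subunit 2, had 19.2 and 26.9 CPM at 30°C, against 41.1 and 39.1 CPM at 25°C (log2FC −0.79).

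Ribosomal protein genes separated replicates more than temperatures. The list held 22.2% and 13.4% of counts at 30°C, against 9.62% and 17.2% at 25°C, means of 17.8% ± 6.18 and 13.4% ± 5.38 (SD, n = 2 each). The difference of 4.37 percentage points had an exact two-sided permutation p of 0.667, where 0.33 is the smallest that 2 against 2 libraries allow. The median log2FC was 0.67 over 81 large-subunit genes and 0.64 over 56 small-subunit genes, with 65 and 44 above 0. Yet both 30°C libraries were above both 25°C libraries in 1 gene of each list (1.23% and 1.79%, against 13.1% of all tested genes). The medians without the first 30°C library were −0.20 and −0.18, and those without the second 25°C library were 2.04 and 1.52. RPL2B, of the large subunit, had 2599 and 143 CPM at 30°C, against 218 and 541 CPM at 25°C. RPL9A, also of the large subunit, had 1231 and 161 CPM at 30°C, against 23.5 and 357 CPM at 25°C. In each of these genes the first 30°C library was the highest and the second lay below the second 25°C library. Most yeast ribosomal protein genes come in close pairs, and reads shared by a pair were not counted.

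**Figure D5:**
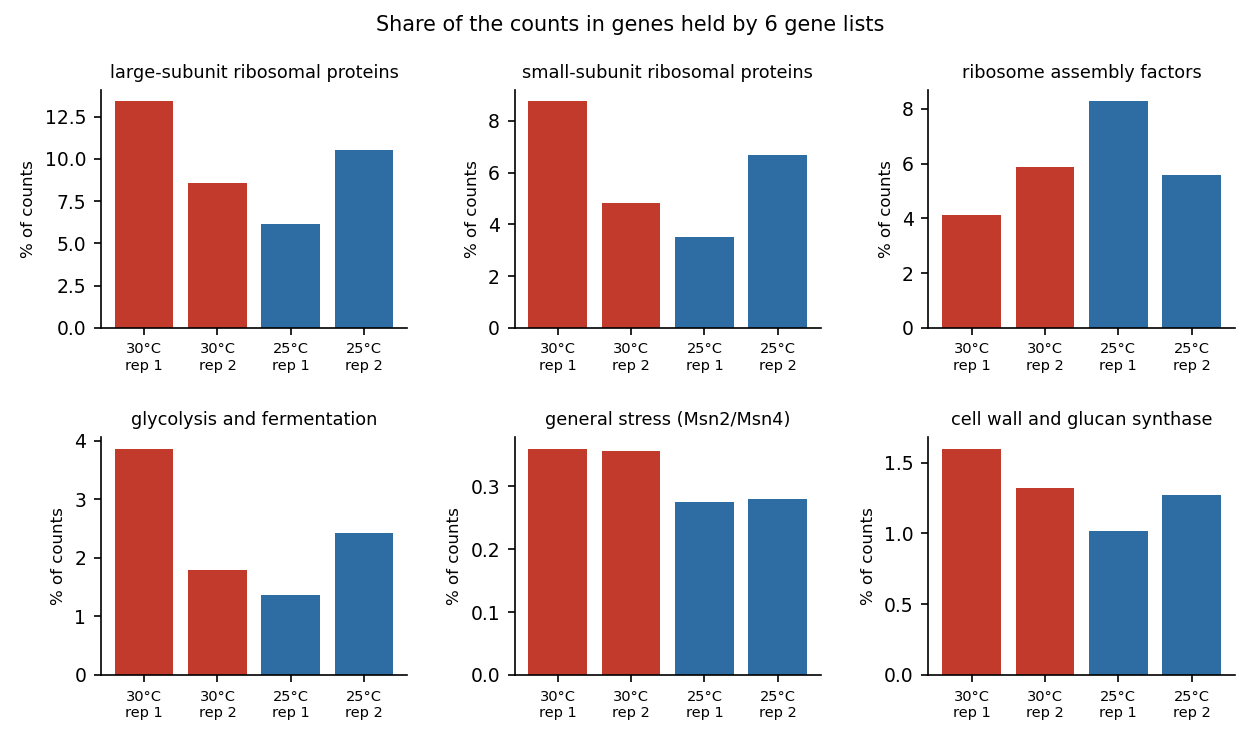
Percent of the counts in genes (vertical axes, each from 0) held by 6 gene lists in each library, with 30°C in red and 25°C in blue; bars are single libraries. In the ribosomal protein and glycolysis panels the first 30°C library is the highest and the first 25°C library the lowest, whereas in the general stress panel both 30°C libraries (0.36% and 0.356%) are above both 25°C libraries (0.275% and 0.28%).

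Of 109 ribosome assembly factors tested, 88 had a log2FC below 0 and 21 above, with a median of −0.41, and both 30°C libraries were below both 25°C libraries in 39 (35.8%, against 10.4% of all tested genes) and above in 2. None of the 109 was at an unadjusted p below 0.05, where 1.1% of all tested genes were so and higher and 0.309% lower. KRR1, a factor of the small-subunit processome, had 343 and 453 CPM at 30°C, against 858 and 554 CPM at 25°C (log2FC −0.82). NSA2, a factor of the large subunit, had 279 and 304 CPM at 30°C, against 935 and 317 CPM at 25°C (log2FC −1.08, and −0.11 without the first 25°C library), and NOP7, also of the large subunit, 898 and 1121 CPM at 30°C, against 2399 and 1281 CPM at 25°C (log2FC −0.86). In these 3 genes the second 25°C library was closer to the second 30°C library than to its own replicate. The share of the list was 4.14% and 5.88% at 30°C, against 8.28% and 5.57% at 25°C, and its median was −0.11 without the first 25°C library and −0.63 without the second.

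Translation factors had a median of −0.20 over 39 tested genes, with 16 above 0 and 23 below. Both 30°C libraries were below in 10 (25.6%, against 10.4% of all tested genes) and above in 2. CDC33, the cap-binding factor eIF4E, had 58.7 and 85.0 CPM at 30°C, against 182 and 92.3 CPM at 25°C, and TIF4631, the scaffold eIF4G1, 319 and 423 CPM at 30°C, against 782 and 451 CPM at 25°C. TIF2, 1 of a pair of near-identical genes for the helicase eIF4A, had 33.8 and 18.4 CPM at 30°C, against 5.88 and 9.47 CPM at 25°C (log2FC 1.59). The reads of TIF2 and its twin cannot be told apart except where their ends differ. Of 22 subunits of RNA polymerases I and III, 8 were above 0 and 14 below.

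Gene length moved with the libraries as well. The median log2FC was 0.27 over the fifth of coding genes with the shortest span (78 to 708 bases) and −0.09 over the fifth with the longest (2196 to 14733 bases). Without the first 30°C library these medians were −0.07 and −0.04. The mean gene length weighted by counts was 1491 and 1745 bases at 30°C, against 1903 and 1648 bases at 25°C, so the ranges overlapped. The part of gene length in the values of the lists was not tested.

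Histone genes, whose transcripts are made in S phase, had a median of 0.43 over 11, with 3 (27.3%, against 13.1% of all tested genes) above in both 30°C libraries and 0 below. HHT1, a gene for histone H3, had 279.7 and 112 CPM at 30°C, against 76.4 and 94.7 CPM at 25°C. HHT2, which encodes the same protein, had 82.3 and 32.6 CPM at 30°C, against 29.4 and 22.5 CPM at 25°C. The median was −0.13 without the first 30°C library. Of 27 cyclins and regulators of the start of the cell cycle, 12 were above 0 and 15 below. At an unadjusted p below 0.05 stood 0 of these 27, against 1.1% higher and 0.309% lower over all tested genes.

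The mRNP factors were those that the study followed. Over 26 tested genes for the packaging, export, and 3′ ends of mRNA, the median log2FC was −0.16, with 10 above 0 and 16 below, 1 above in both 30°C libraries, and 4 below, where over all tested genes 13.1% were above and 10.4% below. YRA1, which carries the SNAP tag here, had 113 and 59.5 CPM at 30°C, against 76.4 and 65.1 CPM at 25°C (log2FC 0.32, interval −0.64 to 1.28). STO1, which carries the protein A tag, had 114 and 188 CPM at 30°C, against 294 and 157 CPM at 25°C (log2FC −0.54, interval −1.63 to 0.56). NAB2, a nuclear poly(A)-binding protein, had 73.3 and 63.7 CPM at 30°C, against 129 and 105 CPM at 25°C (log2FC −0.75, SE 0.31, interval −1.49 to −0.01), and was the 1 gene of this list at an unadjusted p below 0.05. NPL3, an SR-like mRNA-binding protein, and HPR1, a subunit of the THO complex, had log2FC of −0.29 and −0.03. HRP1, a cleavage factor, had 452 and 722 CPM at 30°C, against 2269 and 710.2 CPM at 25°C (log2FC −1.33), and −0.27 without the first 25°C library.

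IRA2, TAO3, and MDN1 are long genes whose single mRNAs the study imaged. MDN1 (REA1 in the annotation), a giant ATPase of ribosome assembly, had 1096 and 1781 CPM at 30°C, against 3222 and 1504 CPM at 25°C. IRA2, a GTPase-activating protein of Ras, had 187 and 313 CPM at 30°C, against 459 and 280.5 CPM at 25°C, and TAO3, of the pathway that controls daughter-cell gene expression, 127 and 169 CPM at 30°C, against 106 and 148 CPM at 25°C. The temperatures overlapped in all 3 genes.

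Among metal genes, the list for zinc and copper uptake had 2 of 10 tested genes higher at an unadjusted p below 0.05, against 1.1% of all tested genes, and 3 above in both 30°C libraries, against 13.1%. CUP2, the activator that responds to copper, had 22 and 9 counts at 30°C, against 1 and 4 at 25°C (log2FC 1.91), and CTR3, a copper transporter, 8 and 6 counts at 30°C, against 1 and 1 at 25°C (log2FC 2.02). The log2FC of CTR3 was 2.76 without the first 25°C library and 0.57 without the second. CTR1, the main copper transporter, had 58.7 and 86.4 CPM at 30°C, against 135 and 76.9 CPM at 25°C (log2FC −0.47). The lists for ergosterol and fatty acids held no gene at an unadjusted p below 0.05: of 25 for ergosterol, 16 were above 0 and 9 below, and of 17 for fatty acids, 12 and 5. Of 16 tested genes known to respond to cold, 10 were above 0 and 6 below, and the median of 0.20 was −0.28 without the first 30°C library.

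The means at 37°C are given for the same genes as levels, low to high in temperature. Across 25°C, 30°C, and 37°C, CHA1 averaged 99.2, 394, and 392.2 CPM, and SNF3 averaged 12.4, 37.7, and 37.0 CPM. COX5B averaged 59.6, 132, and 145 CPM. For these 3 genes the level at 30°C was close to that at 37°C. UBI4 averaged 76.7, 195, and 371 CPM, GSC2 53.7, 144, and 859.7 CPM, and HXK1 37.2, 80.8, and 407 CPM, with 30°C between the other temperatures. MID2 averaged 8.27, 32.1, and 17.3 CPM, highest at 30°C. YHB1 averaged 511, 219, and 46.4 CPM in the same order, the lowest at 37°C. The contrasts with 37°C share these libraries and were not tested here, and the 37°C cultures also received fresh medium.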

How the data were processed

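Total RNA of yeast grown at 30°C or 25°C was measured by 3′-Tag-seq in 2 biological replicates each. The deposited values are raw counts per gene, which the authors made from reads mapped to R64. For this, the submitters' processing notes list HTSeq 2.0.2, STAR 2.7.10a, DESeq2 1.38.2, and UMI-tools 1.0.1. No source used here gives the strand setting, which makes genes that overlap or run antisense to each other uncertain. A normalized version of the counts was not used. Library sizes leave out 5 summary entries: reads in no gene were 41.1% to 47.9% of a library and reads mapped to more than 1 place 7.81% to 14.1%.

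The quasi-likelihood F test of edgeR 4.0.16 (R 4.3.3, TMM scaling) was run on the 5181 genes that filterByExpr kept, with temperature as the factor and all 6 libraries fitted together; the biological coefficient of variation was 0.323. Calls needed an adjusted p (Benjamini-Hochberg) below 0.05 and a log2 fold change beyond 1. To obtain the standard error, the coefficient fitted with no prior count was divided by the root of the F statistic, and 95% intervals are centred on that coefficient. The steps were first tested on simulated data. Where a temperature had 0 counts of a gene, a bound was computed from 3 counts pooled over its libraries, against the counts pooled over those of the other. Alternatives were DESeq2 1.42.0, limma-voom (limma 3.58.1), other scaling, filters, and gene sets, a replicate block, and each library left out.

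The comparison, the 46 gene lists, and the rule for named genes were chosen with earlier results of these data known. Named are the 10 genes higher and 10 lower with the smallest p, up to 3 at 0 counts at each temperature with the most counts at the other, the 5 narrowest intervals, the 5 largest shares of counts, up to 4 members of a list by p, and 8 genes of the study's mRNP work. Of the list names, 4 were not matched. Lists are described by counts and medians. Of the gene identifiers, 6458 matched the R64 annotation, which gave positions and promoters. Summaries used Python 3.11.15, numpy 2.4.6, pandas 2.3.3, and matplotlib 3.10.9.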

Additional observations from a re-analysis of the deposited data

How the results depend on the processing

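The count of genes called was 0 under every alternative run, including an adjusted p below 0.05 alone, and the smallest adjusted p ranged from 0.0823, without the second 25°C replicate, to 1. The 73 genes at an unadjusted p below 0.05 became 21 with the 4 libraries alone, 32 with at least 10 counts in every library, 45 by DESeq2, and 30 to 1408 without 1 of the 30°C or 25°C libraries (51 and 1408 without the first and the second 25°C replicate, 30 and 311 without the first and the second 30°C replicate), and 26 and 25 without a 37°C library. With a replicate block they became 25. The replicate numbers are not stated to mark a shared culture day. Deviations of the first 30°C and 25°C replicates correlated at r = −0.53, of 37°C and 25°C at 0.28, and of 37°C and 30°C at −0.40. With 2 libraries per temperature these values cannot decide whether the samples were paired. A crossed block, chosen after the values were seen, gave 0 called and 311 at an unadjusted p below 0.05. The difference in ribosomal protein share was 0.00446 to 8.74 percentage points without 1 library, 4.33 over nuclear coding genes, and 2.7 with reads in no gene in the total. Of 81 genes named, 10 changed sign of the log2FC under an alternative. SAG1, named above but not among the 81, also changed sign. Its log2FC of −0.39 was 0.08 without the first 25°C library and 0.11 without the first 30°C library. With at least 10 counts in every library, RPN13 was 0.039, BET3 0.072, and HPR1 0.16, and with total counts HPR1 was 0.0093. Over the fits without 1 library of these temperatures, LSR1 ranged from −1.05 to 0.10, TDH3 from −0.29 to 1.06, RPL2B from −1.44 to 2.76, RPL9A from −0.36 to 4.89, QCR8 from −0.28 to 4.27, YRA1 from −0.22 to 0.71, HPR1 from −0.33 to 0.25, and TAO3 from −0.029 to 0.48. The cause of these changes was not tested. Of 470 list medians under alternatives, 48 moved by more than the spread between replicates, taken from the temperature whose replicates differed more. That spread was wide for ribosomal proteins. Their large- and small-subunit medians of −0.20 and −0.18 without the first 30°C library, against 0.67 and 0.64, did not count as moved. The count of 48 is therefore no measure of how stable the medians were. The first 25°C library, with 184456 counts, limits the measurement of transcripts of few CPM. It also stood apart in abundant genes (30.4% of those with at least 100 CPM were beyond 2-fold between the 25°C replicates), and every 25°C mean and fold includes it; why it stands apart was not tested.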

Other observations

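Among the transcripts named for the largest shares of counts, 4 stood apart in the first 25°C library, and TDH3 stood apart in the first 30°C library. The U2 spliceosomal RNA LSR1 had 4953 and 7011 CPM at 30°C, against 12390 and 5608 CPM at 25°C, and the mitochondrial 21S_RRNA had 6344 and 8459 CPM at 30°C, against 16520 and 8137 CPM at 25°C. YEF3, for translation elongation factor 3, had 6786 and 7760 CPM at 30°C, against 16550 and 7531 CPM at 25°C, and GRS1, for glycyl-tRNA synthetase, 3707 and 5065 CPM at 30°C, against 9859 and 4479 CPM at 25°C. In all 4 transcripts the first 25°C library was the highest. TDH3, the main glyceraldehyde-3-phosphate dehydrogenase gene, had 11110 and 4368 CPM at 30°C, against 4103 and 6556 CPM at 25°C.

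Small nucleolar and spliceosomal RNAs held 1.71% and 2.57% of counts at 30°C, against 4.19% and 2.27% at 25°C, with 40 of 77 tested genes above 0 and 37 below. SNR36, a guide RNA for ribosomal RNA modification, had 75.6 and 160 CPM at 30°C, against 876 and 123 CPM at 25°C. It was among the genes lower at an unadjusted p below 0.05. Its log2FC was −2.04, and −0.07 without the first 25°C library. SNR51 had 469 and 951.5 CPM at 30°C, against 3663 and 752 CPM at 25°C. A poly(A) method reads such RNAs only in part. Of 49 tested transfer RNA genes, 28 were above 0 and 21 below.

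In 7 further lists no gene was at an unadjusted p below 0.05, where 1.1% of all tested genes were so and higher and 0.309% lower. At those shares, 0 genes in lists of this size says little about them. Over all 5181 tested genes, 2904 had a log2FC above 0. Of 25 genes against peroxide and superoxide, 20 were above 0, and they held 1.21% and 1.02% of counts at 30°C, against 0.492% and 1.17% at 25°C. Both 30°C libraries were above both 25°C libraries in 2 of them (8.0%, against 13.1% of all tested genes). Their median was 0.02 without the first 30°C library. Of 21 sulfate and methionine genes 14 were above 0, of 16 phosphate starvation genes 9, of 17 phospholipid genes 11, of 72 mitochondrial ribosomal proteins 47, of 28 mRNA decay factors 10, and of 40 splicing factors 13.

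Of 150 intron-containing genes outside the ribosome, 114 were above 0 with a median of 0.29, where 2904 of all 5181 tested genes were above 0. Yet both 30°C libraries were above both 25°C libraries in 16 of them (10.7%, against 13.1% of all tested genes). The list's median was 0.09 without the first 30°C library and 0.75 without the second 25°C library. At an unadjusted p below 0.05, 3 of the 150 were higher, among them COX5B, where 1.1% of all tested genes were so. ELO1, a fatty acid elongase, had 232 and 45.3 CPM at 30°C, against 11.8 and 48.5 CPM at 25°C.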
